A study of Mus musculus with 2 samples.

Results

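Cycling macrophages were taken from single-cell transcriptomes of YUMMER1.7 tumors as cells that carried the macrophage receptor gene Csf1r and whose strongest macrophage gene set was a proliferation set of 4 genes, Mki67, Birc5, Cdk1 and Ccna2. The rule kept 287 of 10075 cells, 220 of 4512 in the library from wild type (WT) hosts and 67 of 5563 in the library labelled Siah2-/-. A cell entered the macrophage gate when its normalized value was above 0 for Csf1r and equal to 0 for Cd3d, Cd3e, Cd3g, Ncr1, Flt3 and Cd209a, genes that mark T cells, natural killer (NK) cells and dendritic cells. The gate held 2954 cells, 1664 WT and 1290 labelled Siah2-/-. The mean value of the proliferation set and of 5 other sets was then expressed as a z-score over all gated cells, and a cell was kept when its highest z-score was that of the proliferation set. The other sets stood for an Mgl2 and MHC class II state (Mgl2, H2-Eb1, H2-Ab1, H2-DMb1), a resident-like state (Fcrls, Folr2, Cbr2, Gas6), an interferon-induced state (Rsad2, Ifit2, Ifit3, Oasl1) and a monocyte-like state (Hp, Chil3, Ifitm6, Vcan), and 1 further set entered the rule but is not described here. The members were thus chosen on the expression values themselves, and their levels of these genes describe the choice.

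YUMMER1.7 is a mouse melanoma line with a Braf mutation that is strongly recognised by the immune system. It was grown for 11 days under the skin of male C57BL/6 mice aged 8 weeks, which were either WT or lacked Siah2, a RING finger ubiquitin ligase. Live CD45+ cells, the leukocytes, were sorted from the tumors of each group, a smaller number of CD45- cells was added, and 1 droplet library was made per genotype. The tumors of a group were pooled, so genotype, tumor pool, cell suspension and library cannot be told apart, no test between genotypes was possible, and every interval below is a 95% interval for counting error only.

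Most macrophages of a tumor descend from blood monocytes and have stopped dividing, but differentiated macrophages can re-enter the cell cycle when the growth factor receptor CSF1R is engaged. The cell then copies its DNA in S phase under the control of E2F factors, and builds the machinery of mitosis in G2 and M phase under the control of B-MYB, FOXM1 and the MuvB proteins. Siah2 acts in the ubiquitin system that degrades regulators of hypoxia and of the cell cycle, including the Cdk inhibitor p27 encoded by Cdkn1b.

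The libraries differed in depth. The cells held 64781513 and 59080246 UMIs (unique molecular identifiers, each standing for 1 captured RNA molecule) in WT and Siah2-/-, with medians of 11434.5 and 8699 and lowest counts of 6670 and 4896 UMIs per cell. The libraries shared 34 cell barcodes over all cells, 1 among gated cells and none among the cycling cells. Siah2 UMIs did not separate the libraries: the cycling cells with macrophage identity described below held 32 WT and 11 Siah2-/- UMIs, or 11.9 and 12.2 CPM (UMIs scaled to the same library total), a log2 ratio of 0.03 (-1.11 to 1.06). The reads come from the 3' end of the transcript, and where the deleted part lies relative to them is not stated by any source read here, so these UMIs check nothing about the label.

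Not all of the 287 cells looked like macrophages. A list of 28 macrophage identity genes, among them Csf1r, Adgre1, Cd68, Lyz2, Tyrobp and the complement genes C1qa to C1qc, gave a median of 5.06% of a cell's UMIs, and the values fell into separate ranges with a gap from 0.705% to 1.22%. Below the gap lay 44 of 220 WT cells, 20.0% (14.9 to 25.9%), and 2 of 67 labelled Siah2-/-, 2.99% (0.364 to 10.4%). Among gated cells outside the cycling set, identity below 1% was found in 48 of 1444 WT cells (3.32%) and 15 of 1223 cells labelled Siah2-/- (1.23%).

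The WT cells below the gap carried few leukocyte transcripts. A UMI of Ptprc, which encodes CD45, was present in 5 of 44 of them, 11.4%, against 165 of 176 WT cells above the gap, 93.8%. Their median Csf1r count was 1 UMI against 7, although they were deeper, with a median of 32354.5 against 13718.5 UMIs per cell. Hmga2, a chromatin protein of embryonic and tumor cells, was detected in 38 of 44, 86.4%, against 9 of 176, 5.11%. These 44 cells held 92.4% of the Hmga2 UMIs of the 220 WT cells, and 88.5% to 96.4% of those of Nes, an intermediate filament of progenitor cells, Il34, a ligand of CSF1R, Adgra2, Cdh2 and Cdh13.

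Macrophage identity of at least 1% was found in 241 of the 287 cells, 176 WT and 65 labelled Siah2-/-. Of these, 7 WT cells, 3.98%, and 2 labelled Siah2-/-, 3.08%, still held 3 or more UMIs of tumor-like markers, and 12 WT cells, 6.82%, and 5 labelled Siah2-/-, 7.69%, held 3 or more of fibroblast and vessel markers. Summed fibroblast and vessel markers stood at 152.3 CPM in WT and 59.8 CPM in Siah2-/-, and tumor-like markers at 46.55 and 28.8 CPM. At least 3 UMIs of NK cell markers were held by 45 WT cells, 25.6%, and 40 labelled Siah2-/-, 61.5%. T cell markers reached that count in 3 and 11 cells, and B cell markers in 8, 4.55%, and 6, 9.23%. The results below are given for these 241 cells, called cycling macrophages, and for all 287, called the cycling set, where the values differ. The limit of 1% was chosen after these values were seen, and only 6 members of the set lay between 0.5% and 2%.

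**Figure D1:**
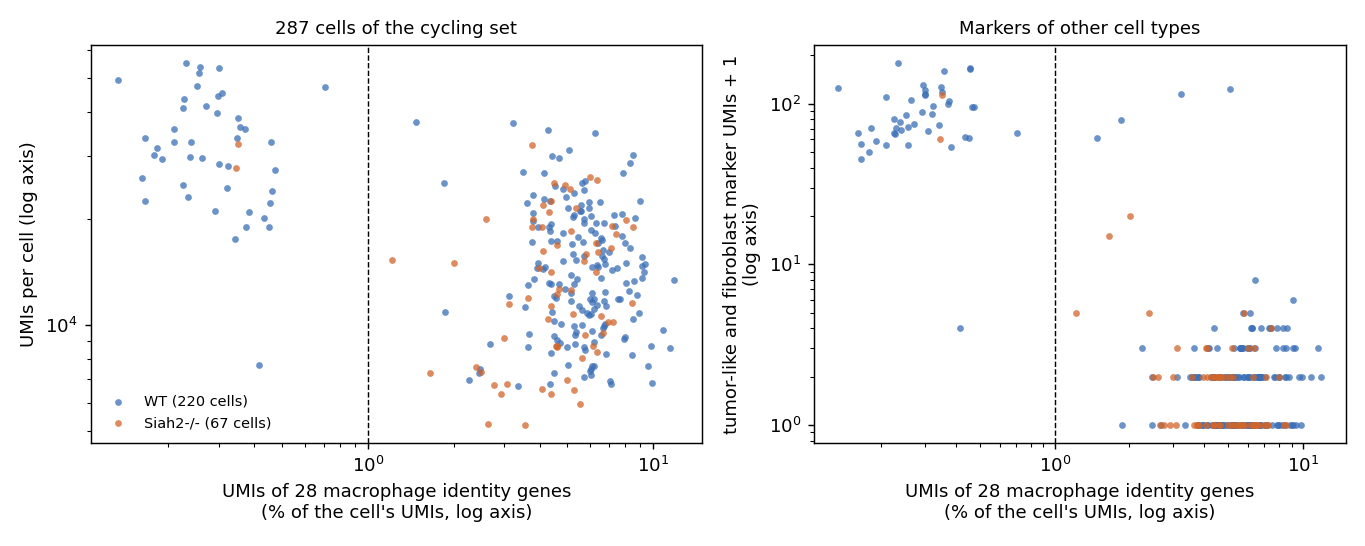
Each point is 1 of the 287 cells of the cycling set, blue for WT and orange for Siah2-/-, and the x axis gives the percentage of its UMIs from 28 macrophage identity genes on a log axis. The y axes give UMIs per cell (left, log axis) and UMIs of tumor-like and fibroblast markers plus 1 (right, log axis). The 46 cells left of the dashed line at 1% are mostly WT, deep and high in the markers of other cells, and 241 cells lie to its right, a few of which are also high in those markers.

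The 4 genes of the rule act at successive steps of the cycle. Ccna2 (ENSMUSG00000027715, minus strand, chr3:36564865-36572150 in GRCm38) encodes cyclin A2, which drives S phase and entry to mitosis with Cdk1 (ENSMUSG00000019942, minus strand, chr10:69335146-69352938). Birc5 (ENSMUSG00000017716, plus strand, chr11:117849251-117855743) encodes survivin, a member of the complex that corrects the attachment of chromosomes to the spindle. Mki67 (ENSMUSG00000031004, minus strand, chr7:135689784-135716361) encodes Ki-67, which coats mitotic chromosomes and is the usual stain for proliferation. Birc5 was the most abundant of them, found in 152 of 176 WT cycling macrophages and in 50 of 65 labelled Siah2-/-.

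Promoters of these genes are shown for the elements that cycle genes share. Promoter sequences of 300 bases, from 250 before to 50 after the annotated start, were taken from RefSeq on GRCm38.p6 for 27025 genes and searched on both strands for the late cycle element CHR (TTTGAA or TTCGAA), the CCAAT box that accompanies it (CCAAT) and an E2F-like site (TTNNCGC). Matches may overlap each other. The set had entries for Mki67, Cdk1 and Birc5 but none for Ccna2, and Mcm5, which encodes a subunit of the helicase that opens DNA in S phase, is shown as a contrast. Capitals mark the matches:
Mki67 (chr7:135716330-135716629, minus strand): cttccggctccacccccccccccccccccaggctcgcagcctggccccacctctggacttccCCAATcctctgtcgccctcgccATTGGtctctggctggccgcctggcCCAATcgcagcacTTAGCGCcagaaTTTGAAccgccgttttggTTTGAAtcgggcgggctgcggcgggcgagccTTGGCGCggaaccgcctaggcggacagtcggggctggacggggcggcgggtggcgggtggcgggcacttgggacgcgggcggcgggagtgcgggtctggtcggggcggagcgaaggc
Cdk1 (chr10:69352863-69353162, minus strand): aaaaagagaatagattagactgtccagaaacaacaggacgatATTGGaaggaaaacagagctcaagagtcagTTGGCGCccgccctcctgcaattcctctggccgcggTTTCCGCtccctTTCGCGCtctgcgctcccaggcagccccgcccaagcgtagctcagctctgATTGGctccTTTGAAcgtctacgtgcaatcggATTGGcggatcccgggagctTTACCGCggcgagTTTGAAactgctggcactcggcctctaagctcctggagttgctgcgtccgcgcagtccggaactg
Birc5 (chr11:117848987-117849286, plus strand): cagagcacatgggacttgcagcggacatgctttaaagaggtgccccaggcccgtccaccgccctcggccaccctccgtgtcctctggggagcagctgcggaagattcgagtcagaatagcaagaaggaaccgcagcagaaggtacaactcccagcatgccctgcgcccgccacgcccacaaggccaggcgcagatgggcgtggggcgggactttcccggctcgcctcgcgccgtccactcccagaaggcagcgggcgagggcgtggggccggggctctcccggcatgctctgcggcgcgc
Mcm5 (chr8:75109259-75109558, plus strand): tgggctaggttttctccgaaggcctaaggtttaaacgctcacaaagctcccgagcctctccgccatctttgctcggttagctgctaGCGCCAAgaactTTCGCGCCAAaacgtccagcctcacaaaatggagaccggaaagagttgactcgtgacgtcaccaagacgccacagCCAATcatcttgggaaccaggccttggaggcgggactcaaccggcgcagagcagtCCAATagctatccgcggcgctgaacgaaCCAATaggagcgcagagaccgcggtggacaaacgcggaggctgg

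Mki67 and Cdk1 each held 2 CHR matches and 3 CCAAT boxes, with 2 and 4 E2F-like sites. Mcm5 held 3 CCAAT boxes and 3 E2F-like sites but no CHR match, and no searched letters were found in this window of Birc5. The same contrast ran through the lists used below. A CHR match was present in 52 of 66 matched promoters of the G2/M and mitosis list, 78.8%, in 10 of 45 of the S phase and DNA replication list, 22.2%, and in 21.7% of all promoters. E2F-like sites were present in 38 of 45 S phase promoters, 84.4%, in 31 of 66 G2/M promoters, 47.0%, and in 22.6% of all promoters. The macrophage identity genes held a CHR match in 2 of 17 and an E2F-like site in 5 of 17. These matches describe letters in the window and are not sites of binding measured in these cells.

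Cycling macrophages ranged from cells with a trace of the proliferation set to cells with all of it. All 4 genes were detected in 79 of 176 WT cells, 44.9% (37.4 to 52.6%), and in 20 of 65 labelled Siah2-/-, 30.8% (19.9 to 43.5%). Only 1 of the 4 was detected in 29 WT cells, 16.5% (11.3 to 22.8%), and in 22 labelled Siah2-/-, 33.8% (22.6 to 46.6%). A single gene sufficed for membership where the other sets were low. The cells just inside the rule had a z-score for the proliferation set 0.00702 and 0.00926 above their next highest set, and those just outside had margins of -0.00314 and -0.00871. Within 0.25 z of the limit lay 30 WT and 14 Siah2-/- members, and 75 and 25 gated cells on the other side.

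When every cell was thinned to 4500 UMIs, detection of Birc5 and Mki67 was lower in Siah2-/-, with intervals that overlapped. Both genes chose the cells. Birc5 was found in 68.8% (61.3 to 75.5%) of WT and 61.5% (48.6 to 73.4%) of Siah2-/- cycling macrophages, and Mki67 in 41.5% (34.1 to 49.1%) and 32.3% (21.2 to 45.1%). Top2a, a cycle gene outside the rule, was found in 49.4% (41.8 to 57.1%) and 30.8% (19.9 to 43.5%). Pcna, another, was found in 29.0% and 32.3%. The values at full depth were 86.4% and 76.9% for Birc5 and 71.0% and 53.8% for Mki67. Among the other macrophages, thinned Birc5 detection was 6.23% in WT and 3.15% in Siah2-/-, and the unthinned values were 11.8% and 5.79%.

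The cycling set was a smaller part of the macrophages labelled Siah2-/-. It made up 220 of 1664 gated WT cells, 13.2% (11.6 to 14.9%), and 67 of 1290 labelled Siah2-/-, 5.19% (4.05 to 6.55%), a log2 ratio of -1.35 (-1.77 to -0.95). Among gated cells with macrophage identity the shares were 176 of 1572, 11.2% (9.68 to 12.9%), and 65 of 1273, 5.11% (3.96 to 6.46%), a log2 ratio of -1.13 (-1.57 to -0.71). The intervals of the shares did not overlap in either case, but they cover counting error only and not the spread between tumor pools. Without the cells that held 3 or more UMIs of another cell type's markers, 112 and 19 cycling cells were left and the log2 ratio was -1.61.

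The size of this difference moved with the way cells were scored. With every cell thinned to 4500 UMIs, gated and scored anew, which also changed the gate by removing UMIs of Csf1r and of the barred genes, the shares among cells with macrophage identity were 214 of 1679, 12.7%, and 112 of 1583, 7.08%, a log2 ratio of -0.85 (-1.19 to -0.51). With z-scores taken within each library, so that each library was its own scale, the log2 ratio was -0.59 (-0.94 to -0.24) for the cycling set and -0.34 (-0.71 to 0.03) for the cycling macrophages, whose interval held 0. When at least 2 of the 4 genes had to be detected in thinned cells, 125 and 35 cycling macrophages were left and the log2 ratio was -1.53 (-2.12 to -0.98). The ratio was below 0 under each of these choices.

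Each cycling cell also had a highest z-score among the 5 other sets, which gave it a second state. In WT, 78 of 176 cycling macrophages had the resident-like state, 44.3% (36.9 to 52.0%). In Siah2-/-, 11 of 65 had the resident-like state, 16.9% (8.76 to 28.3%), a difference of -27.4 percentage points that was -17.2 in thinned cells. The Mgl2 and MHC class II state was common in both, with 59 WT cells, 33.5%, and 27 labelled Siah2-/-, 41.5%, a log2 ratio of 0.31 (-0.40 to 0.99). The interferon-induced state was carried by 15.3% and 15.4%. The macrophages outside the set differed between the libraries in the same direction for the resident-like state, which was found in 18.0% of WT and 0.993% of Siah2-/- cells. For the Mgl2 and MHC class II state the direction was the opposite, 44.2% and 26.4% outside the set. The monocyte-like state, carried by 8 WT cycling macrophages, 4.55%, and 1 labelled Siah2-/-, 1.54%, was also opposite outside the set, at 10.2% and 21.7%. Its log2 ratio inside the set was -1.56 (-7.0 to 1.3). Inside the set the intervals of the Mgl2 and MHC class II and the monocyte-like ratios held 0.

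The share of cycling cells was also counted within each state. In the Mgl2 and MHC class II state it was 59 of 676, 8.73% (6.71 to 11.1%), against 27 of 346, 7.803% (5.21 to 11.2%), with a log2 ratio of -0.16 (-0.88 to 0.52). This interval holds 0 and also ratios down to -0.88. In the interferon-induced state 27 of 322 cells, 8.39%, and 10 of 198, 5.05%, were cycling.

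State and membership come from the same z-scores, so these shares are partly fixed by the rule: a cell high in its state set could be a member only if its proliferation z-score was higher still. Monocyte-like cells outside the set had a median z-score of 1.47 for their set in WT and 2.11 in Siah2-/-. Of monocyte-like cells, 8 of 150 in WT, 5.33% (2.33 to 10.2%), and 1 of 263 labelled Siah2-/-, 0.380% (0.00963 to 2.10%), were cycling. In thinned cells these shares were 8 of 155, 5.16% (2.25 to 9.92%), and 4 of 293, 1.37% (0.373 to 3.46%). Of resident-like cells, 78 of 329 in WT, 23.7% (19.2 to 28.7%), and 11 of 23 labelled Siah2-/-, 47.8% (26.8 to 69.4%), were cycling. The last value rests on weak evidence of the state: 5 of these 11 cells held no UMI of Fcrls, Folr2, Cbr2 or Gas6, and 1 held 2 of the genes. In WT 10 of the 78 held none and 43 held 2 or more. A cell low in all 5 sets still receives a second state, so the name is a highest score and not a detected program.

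The resident-like genes were also counted as detected or not. Membership was still decided by z-scores that include these genes, so the shares are a description conditioned on the rule. Of WT macrophages with 2 or more of the 4 resident-like genes, 46 of 268 were cycling, 17.2% (12.9 to 22.2%), against 83 of 1024 with none, 8.11% (6.51 to 9.95%). Labelled Siah2-/-, the shares were 6 of 24, 25% (9.77 to 46.7%), and 49 of 1180, 4.15% (3.09 to 5.45%). The cycling cells were deeper than the others, with medians of 13718.5 against 9757 UMIs in WT and 12564 against 8155 in Siah2-/-. In thinned cells the share with 2 or more genes was 15 of 175 in WT, 8.57% (4.88 to 13.7%), no higher than the 9.35% (7.74 to 11.2%) of cells with none, and 1 of 6 labelled Siah2-/-. With exactly 1 gene detected it was 51 of 220, 23.2% (17.8 to 29.3%), in WT and 8 of 48, 16.7% (7.48 to 30.2%), in Siah2-/-.

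Applying the WT cycling share of each state to the Siah2-/- mix of states gave 6.67% cycling macrophages, between the 11.2% observed in WT and the 5.11% observed in Siah2-/-. The reverse, Siah2-/- shares on the WT mix, gave 14.7%, but this value rests on the 11 of 23 resident-like cells. Both are arithmetic on the observed shares and give no part of the difference to a cause.

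**Figure D2:**
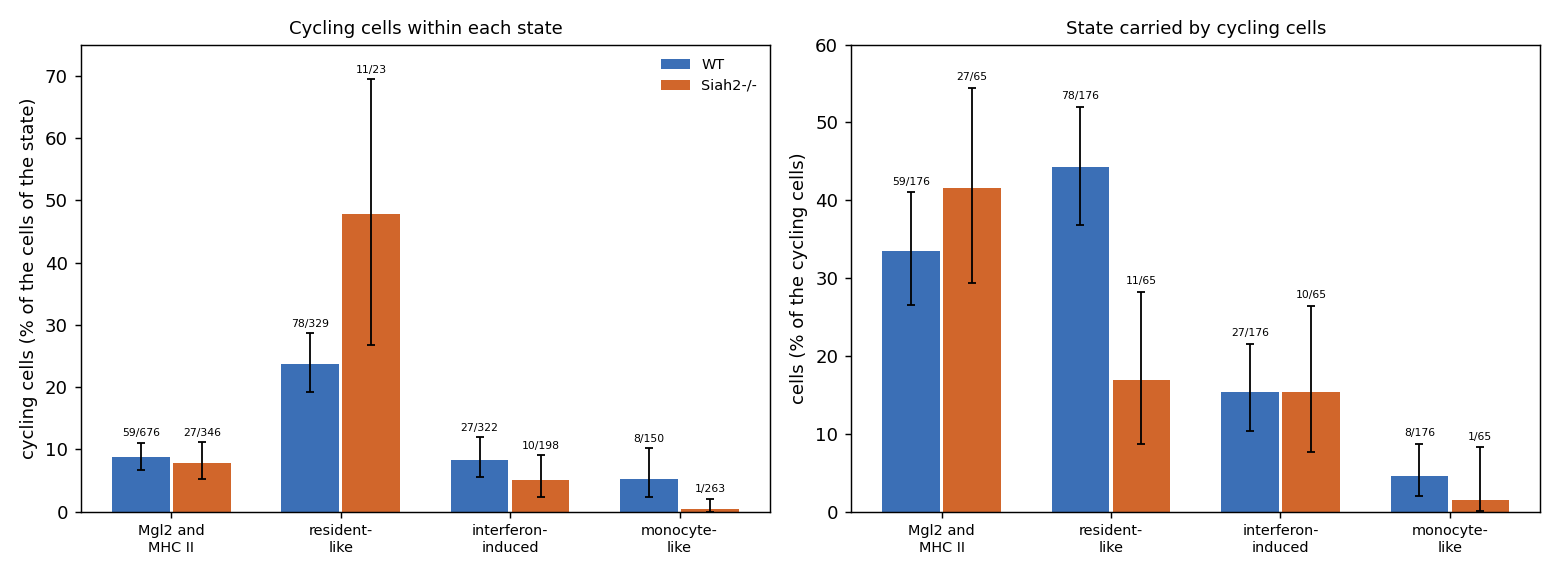
Bars give, for the 4 states described, the percentage of cells of each state that were cycling (left) and the percentage of cycling macrophages with each second state (right), blue for WT and orange for Siah2-/-, with 95% exact binomial intervals for counting error and the cell counts above. Resident-like cells were 78 of 176 in WT and 11 of 65 in Siah2-/-.

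The split of cycle transcripts between S phase and mitosis was given by sums over cells. The intervals of this split count UMIs and leave out the spread between cells. The G2/M and mitosis list of 79 genes took 70.9% (70.4 to 71.4%) of the UMIs of both cycle lists in WT cycling macrophages and 71.0% (70.0 to 71.9%) in Siah2-/-. In the 125 and 35 cells with at least 2 of the 4 genes detected after thinning it was 72.9% and 77.6%. Without cells with 3 UMIs of another type's markers the Siah2-/- share differed from WT by -3.81 percentage points, the opposite direction. The direction also differed between second states, some of which held few cells. The share was 67.2% (65.7 to 68.7%) in 27 WT cells and 85.1% (83.5 to 86.6%) in 10 labelled Siah2-/- of the interferon-induced state. In the resident-like state it was 71.6% (70.9 to 72.3%) in 78 WT cells and 67.8% (65.0 to 70.4%) in 11 labelled Siah2-/-. In the Mgl2 and MHC class II state it was 71.5% and 70.8%, and in the monocyte-like state 75.1% in 8 cells and 46.2% (19.2 to 74.9%) in 1 cell. The amount per cell differed: thinned cells held a mean of 35.5 G2/M and 14.5 S phase UMIs in WT and 26.7 and 10.7 in Siah2-/-. Thinned cells were assigned a phase by the highest positive score, as in the study. In WT 31 cells, 17.6% (12.3 to 24.1%), were called G1, 40.9% (33.6 to 48.6%) S and 41.5% (34.1 to 49.1%) G2/M. In Siah2-/- 19 cells, 29.2% (18.6 to 41.8%), were called G1, 33.8% (22.6 to 46.6%) S and 36.9% (25.3 to 49.8%) G2/M. The intervals overlapped in every phase. Free RNA from dividing cells was present in both libraries, since barcodes with 10 to 100 UMIs held the 4 genes of the proliferation set at 335.2 CPM in WT and 207.0 CPM in Siah2-/-, below the 877.8 and 771.5 CPM of the cycling macrophages.

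**Figure D3:**
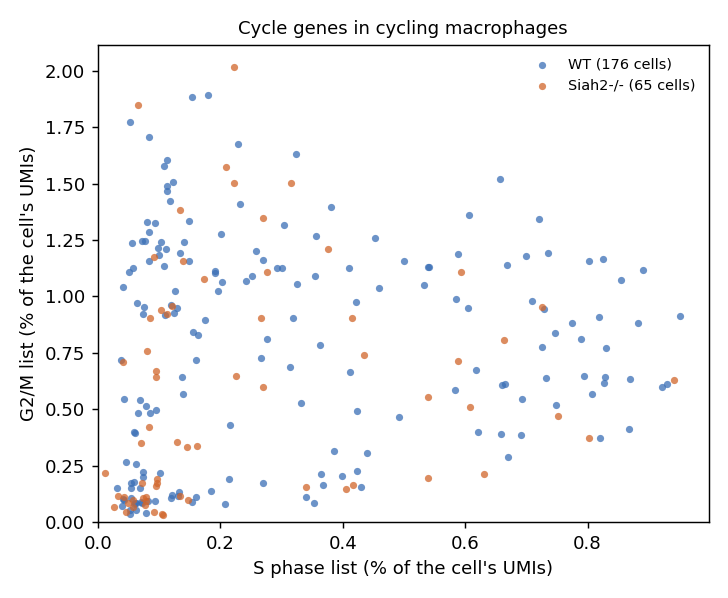
Each point is 1 cycling macrophage, blue for WT (176 cells) and orange for Siah2-/- (65 cells), placed by the percentage of its UMIs from the S phase list (x axis) and from the G2/M list (y axis). Both libraries cover the same ranges, from cells near the origin to cells high in either list.

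Gene levels were compared as UMIs summed over the cells of a library, with at least 50 UMIs over both. Of 6108 genes measured in cycling macrophages, 129 were 2-fold or more higher in Siah2-/-, 2.11%, and 106 were 2-fold or more lower, 1.74%. With a minimum of 200 UMIs these counts were 44 and 11, and with no minimum 1006 and 735. In the cycling set the counts were 228 of 7516 higher, 3.03%, and 640 lower, 8.52%, so the count of lower genes was larger with the 46 cells of low identity included. The median log2 ratio of all genes was -0.03 in cycling macrophages.

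The cells were chosen for high mitotic genes and the other macrophages for a higher score of another set, so the levels of cycle genes in both groups are conditioned on the rule. Of 52 measured genes of the S phase and DNA replication list, 0 were 2-fold higher and 1 was 2-fold lower, beside a background of 2.11% and 1.74%, and their median log2 ratio was -0.15, or -0.75 without the deepest 5% of gated cells. Of the 52 ratios, 13 lay above 0 and 39 below it. In the other macrophages the same list had a median of -0.90 with 25 genes 2-fold lower, where 2.1% of the same 6108 genes were 2-fold higher and 3.14% lower. Pcna, the sliding clamp of the DNA polymerases, was measured at 108 CPM in WT and 151 CPM in Siah2-/-, a log2 ratio of 0.47 (0.17 to 0.77). Pola1, the catalytic subunit of the polymerase that starts new strands, had 65 and 8 UMIs and a log2 ratio of -1.45 (-2.72 to -0.39).

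Of 72 measured G2/M genes 1 was 2-fold higher and 0 were 2-fold lower, near the background of 2.11% and 1.74%, with a median log2 ratio of -0.21, or -0.79 without the deepest 5% of gated cells. Of the 72 ratios, 16 lay above 0 and 56 below it. In the other macrophages the median was -0.80 and 27 genes were 2-fold lower, beside 3.14% of all genes. The gene past 2-fold was Gas2l3, a linker of actin and microtubules, at 31 and 25 UMIs. Top2a, which untangles replicated chromosomes, was at 231 CPM in WT and 199 CPM in Siah2-/-, a log2 ratio of -0.21 (-0.46 to 0.03). The gene with the lowest ratio, Kif15, a spindle motor, had 61 and 11 UMIs and a log2 ratio of -0.90 (-1.98 to 0.04).

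Among the genes of the rule, Mki67 stood at 132 CPM in WT and 89.7 CPM in Siah2-/-, a log2 ratio of -0.56 (-0.92 to -0.20). Cdk1 stood at 200.4 and 165 CPM, -0.28 (-0.55 to -0.02), Birc5 at 413 and 376 CPM, -0.13 (-0.31 to 0.04), and Ccna2 at 133 and 141 CPM, 0.08 (-0.22 to 0.38). These genes chose the cells, and their levels describe the choice. In the 112 and 19 cells left without any with 3 UMIs of another type's markers, Mki67 had a log2 ratio of -1.60 (-2.68 to -0.69), Birc5 of -0.83 (-1.30 to -0.39) and Ccna2 of -0.84 (-1.74 to -0.06).

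Of 20 measured cyclins, Cdks and E2F factors none was 2-fold higher or lower at full depth, beside a background of 2.11% and 1.74%, with a median of -0.10. Ccnd2, a D-type cyclin that links growth factors to the cycle, was the lowest D cyclin at 297 and 167 CPM, -0.83 (-1.09 to -0.58), and was lower in the other macrophages by a similar amount, -0.80. Ccnd1 and Ccnd3 had log2 ratios of -0.11 (-0.37 to 0.14) and -0.08 (-0.51 to 0.32). E2f1 and Foxm1, transcription factors of S phase and mitosis, had 96 and 25 and 65 and 12 UMIs, with log2 ratios of -0.37 (-1.07 to 0.28) and -0.87 (-1.89 to 0.04). Some of these values passed 2-fold under another choice of cells: Foxm1 was at -1.93 without the deepest 5% of gated cells, and E2f1 was at -1.48 and Ccnd2 at -1.12 without cells with 3 UMIs of another type's markers.

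Cdkn1b, which encodes p27, was detected with 57 UMIs in WT and 28 in Siah2-/-, or 21.2 and 31.0 CPM, a log2 ratio of 0.55 (-0.16 to 1.22), and stood at 0.65 in the other macrophages. Without cells with 3 UMIs of another type's markers its log2 ratio was 1.13. Cdkn1a, which encodes the p53 target p21, had 280 and 360 CPM, 0.36 (0.17 to 0.55). Of 13 measured Cdk inhibitors and p53 targets 1, Gadd45b, was 2-fold higher and none was 2-fold lower, beside the same 2.11% and 1.74%, and Trp53 itself was at -0.61 (-1.001 to -0.24). None of 20 measured genes of the APC/C, SCF and Siah ubiquitin ligases passed 2-fold, with a median of -0.13. Myc, a growth regulator, had 66 and 28 UMIs and a log2 ratio of 0.33 (-0.36 to 0.99).

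Of 26 measured genes that supply nucleotides 0 were 2-fold higher and 3 were 2-fold lower in Siah2-/- cycling macrophages, beside a background of 2.11% and 1.74%, with a median log2 ratio of -0.43. Of the 26 ratios, 1 lay above 0 and 25 below it. The 3 genes that were 2-fold lower included Shmt1 and Ctps, enzymes of one-carbon transfer and CTP synthesis, with 54 and 8 and 49 and 7 UMIs. Rrm2 and Tyms, which make deoxynucleotides and thymidylate, had log2 ratios of -0.76 (-1.13 to -0.41) and -0.71 (-1.07 to -0.36), and Tk1, which salvages thymidine, -0.55 (-0.84 to -0.28). The other macrophages had a median of -0.66 for the list, with 6 genes lower beside a background of 3.14%. Of 14 measured histone genes 1, the linker histone Hist1h1b, was 2-fold lower, at 97 and 15 UMIs, and many histone messages lack the tail that the library captures.

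Of 25 measured glycolysis genes 7 were 2-fold higher in Siah2-/- cycling macrophages and 0 were 2-fold lower, beside a background of 2.11% and 1.74%, and 23 lay above 0 and 2 below it, with a median log2 ratio of 0.70. The other macrophages had a median of 0.74 and 5 genes higher, beside 2.1% of all genes. Pgk1, which makes the first ATP of the pathway, stood at 60.3 CPM in WT and 174 CPM in Siah2-/-, 1.53 (1.20 to 1.85), and Slc16a3, a lactate exporter, at 52.5 and 142 CPM, 1.43 (1.08 to 1.79). A Pgk1 UMI was found in 47.73% and 72.31% of cycling and in 47.85% and 77.15% of other macrophages. Slc2a1, the glucose transporter GLUT1, had a log2 ratio of 1.05 (0.56 to 1.53) and Hif1a, the oxygen-sensitive factor that controls these genes, 0.85 (0.40 to 1.28). Pfkfb4, a regulator of glycolytic flow, had the lowest value, -0.50 (-1.23 to 0.16).

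The interferon response list had a median log2 ratio of 0.31 in cycling macrophages, with 4 of 38 genes 2-fold higher and 0 lower beside a background of 2.11% and 1.74%, and 0.24 in the other macrophages. Cd274, which encodes the checkpoint ligand PD-L1, was detected in 50 of 176 WT cells and 37 of 65 labelled Siah2-/-, with 67 and 62 UMIs, 1.46 (0.94 to 1.98). In thinned cells it was detected in 9.09% and 30.8% of them, and in 18.3% and 38.7% of the other macrophages. Ifi205 had a log2 ratio of 1.53 (1.03 to 2.03), and Rsad2, an antiviral enzyme of the interferon-induced set, 1.10 (0.71 to 1.49). Of 13 measured MHC class II presentation genes none passed 2-fold, with a median of 0.12.

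The complement, scavenger and resident list had a median log2 ratio of -0.22 in cycling macrophages, with 3 of 21 genes 2-fold lower, Fcrls, Cbr2 and Gas6, all of the resident-like set of the rule, and of -0.88 in the others, with 6 lower. The background of lower genes was 1.74% and 3.14%. Genes of the resident-like set helped decide membership, so their levels in both groups are partly fixed by the choice. C1qa, which starts the classical complement pathway, stood at 6867 and 5714 CPM in cycling cells, -0.27 (-0.31 to -0.22), against -0.91 in the others. Adgre1, which encodes the macrophage antigen F4/80, had -0.31 (-0.54 to -0.08) against -0.73, and Vcam1, an adhesion molecule, -0.04 (-0.44 to 0.35) against -2.04. With 1 library a group the difference between these ratios could not be tested.

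All 4 genes of the resident-like set had ratios below 0, and 3 were 2-fold lower, beside a background of 1.74%. They belong to a set of the rule, so their levels in cycling and other macrophages are partly fixed by the choice. Fcrls, a scavenger-like receptor gene, had 551 UMIs spread over 83 cells in WT and 5 over 3 cells in Siah2-/-, -5.21 (-6.84 to -3.98), close to the -5.32 of the other macrophages. Folr2, the folate receptor of resident macrophages, had 108 UMIs over 35 cells in WT and 24 over 12 cells in Siah2-/-, -0.60 (-1.30 to 0.05), against -3.49 in the others, but 8 of the 24 UMIs lay in 1 cell. Gas6 had 70 and 6 UMIs, -1.97 (-3.47 to -0.78), and Cbr2 52 and 4 UMIs, -2.13 (-4.06 to -0.69), against -3.63 and -3.62 in the others. Maf, a macrophage transcription factor, was at -0.11 (-0.45 to 0.21).

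**Figure D4:**
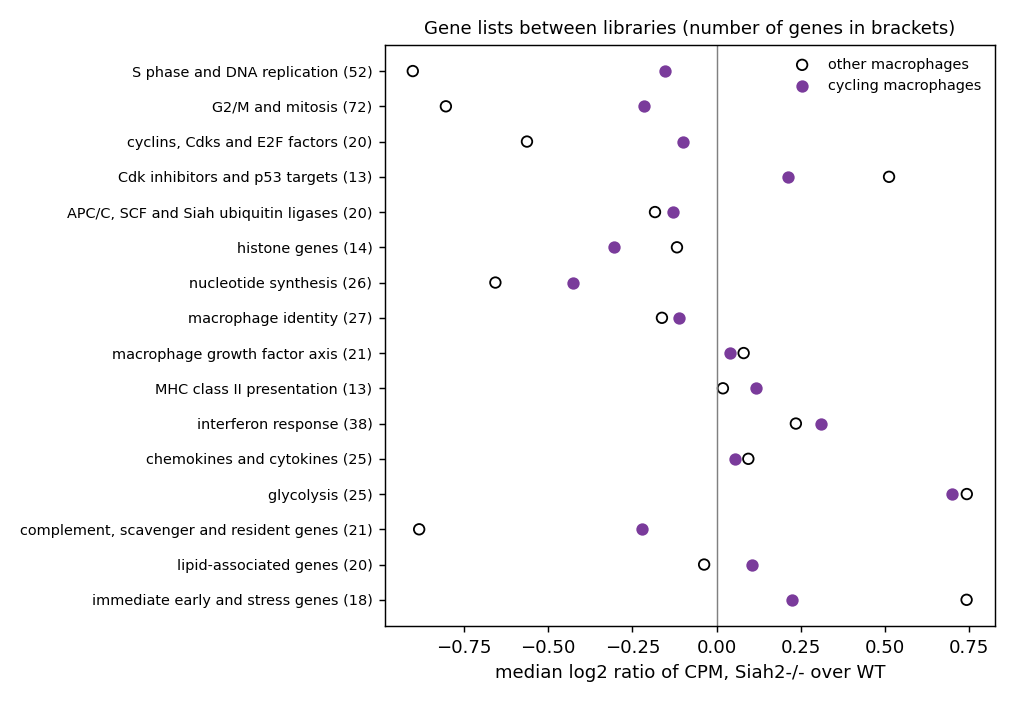
Each line is a gene list with the number of measured genes in brackets, and the x axis gives the median log2 ratio of CPM, Siah2-/- over WT, in cycling macrophages (filled) and in other macrophages (open). The S phase, G2/M and cyclin lists lie at -0.10 to -0.21 in cycling and at -0.56 to -0.90 in other macrophages, while glycolysis lies at 0.70 and 0.74.

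The genes with the highest ratios, chosen from those with no cell over 10% of a library's UMIs of the gene and an interval without 0, held Cd274, Pgk1 and Cfb, a protease of the alternative complement pathway at 47.7 and 138 CPM, 1.54 (1.17 to 1.90). Pira2, an activating receptor gene of a family of close copies, had 64 and 70 UMIs, 1.70 (1.19 to 2.21), and Batf2, an interferon-induced factor, 35 and 35 UMIs, 1.57 (0.85 to 2.29). Gm6133, Gm10036, Gm10116, Gm10020 and Gm2000 lay at 1.56 to 1.90. Gm10020 and Gm10036 are annotated as processed pseudogenes, copies that can share reads with a parent gene, and their values are uncertain.

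Gzmb, the granzyme of killer cells, was also among them at 38 and 42 UMIs, 1.72 (1.05 to 2.39). Free RNA held Gzmb at 1232 CPM in WT and 1716 CPM in Siah2-/-, far above the 14.2 and 46.5 CPM of the cycling macrophages. Markers of T and NK cells moved with the library. At least 3 UMIs of the 18 T cell markers were found in 3 of 176 WT cycling macrophages, 1.70% (0.353 to 4.90%), and in 11 of 65 labelled Siah2-/-, 16.9% (8.76 to 28.3%), against 21 of 1396 and 86 of 1208 (7.12%) of the other macrophages. At least 3 UMIs of the 14 NK cell markers were found in 45 of 176, 25.6% (19.3 to 32.7%), and 40 of 65, 61.5% (48.6 to 73.4%), of the cycling macrophages, and in 31.8% and 55.4% of the others. The summed T cell markers were at 31.3 and 124 CPM and the NK cell markers at 136 and 347 CPM, Cd3d, Cd3e, Cd3g and Ncr1 being at 0 by the rule. The part of free RNA and of doublets in these values was not tested.

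The lowest ratios were chosen by the same limits, which leave out every gene detected in a library with under 10 UMIs, such as Fcrls (-5.21) and Pola1 (-1.45). Among the genes kept, Ide, a protease that degrades insulin, had 80 and 10 UMIs, -1.43 (-2.54 to -0.48), and Bmyc, a relative of Myc, 143 and 20 UMIs, -1.27 (-2.02 to -0.59). Ptgs1, the cyclooxygenase COX-1, had 157 and 24 UMIs, -1.14 (-1.82 to -0.51), and stood lower still in the other macrophages, -1.89. Idh2, a mitochondrial dehydrogenase, and Tubg1, which nucleates microtubules, had -0.82 (-1.22 to -0.44) and -0.93 (-1.66 to -0.27).

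**Figure D5:**
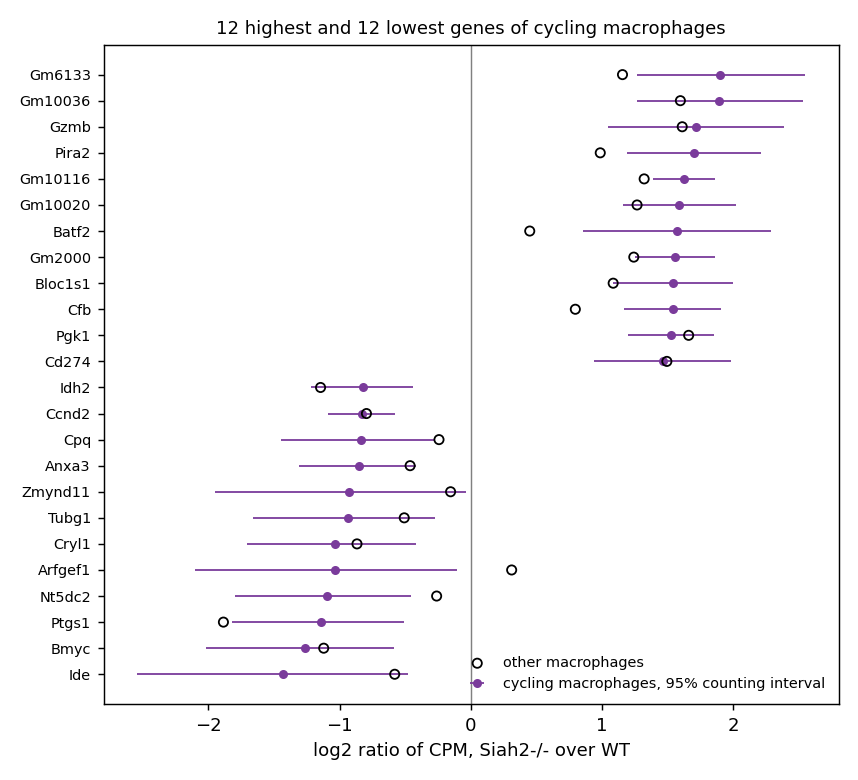
Points give the log2 ratio of CPM, Siah2-/- over WT, for the 12 highest and the 12 lowest genes of cycling macrophages among those with no cell over 10% of a library's UMIs of the gene and an interval without 0, with 95% counting intervals (purple), and open circles give the same ratio in the other macrophages. All 24 open circles but that of Arfgef1 lie on the same side of 0 as the filled ones, which are from -1.43 to 1.90.

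Of 25 measured chemokines and cytokines 1 was 2-fold higher and 2 were lower, beside a background of 2.11% and 1.74%, with a median of 0.06, and counts this small are not read as a result about the list. Ccl5, a chemokine that draws T cells, was at 451 and 1358 CPM, 1.59 (1.48 to 1.71), with a single WT cell holding 251 of its 1210 UMIs and a single cell labelled Siah2-/- holding 283 of 1227. Pf4 and Cxcl14 were lower, with log2 ratios of -1.10 (-1.29 to -0.92) and -1.13 (-1.87 to -0.47), but 12 of the 21 Siah2-/- UMIs of Cxcl14 lay in 1 cell. Ccl17, a ligand of CCR4, had 45 UMIs in WT, 44 of them in 1 cell, and 0 in Siah2-/-, where 3 UMIs would have been the limit, so no fold is drawn from it. Ccl22 had 8 and 0 UMIs. Nos2, which makes nitric oxide, had 1 UMI in WT and 8 UMIs in 3 cells of Siah2-/-, 6 of them in 1 cell, and no fold is drawn from it. Cebpb, a factor of inflammatory macrophages, was detected in 85 of 176 and 52 of 65 cells, 1.42 (1.11 to 1.73). Among the other macrophages it was detected in 53.8% of WT and 84.8% of Siah2-/- cells.

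Compared with the macrophages around them, cycling macrophages were higher in cycle genes by construction, and nothing is read from that count. Of the 6108 genes, 372 were 2-fold or more higher in cycling than other macrophages in WT, 6.09%, and 499 in Siah2-/-, 8.17%, while 78 (1.28%) and 148 (2.42%) were 2-fold or more lower. The highest genes outside the cycle lists were Spag5, a spindle protein, with log2 ratios of 4.68 and 6.95, Lockd, a non-coding RNA made next to Cdkn1b, at 3.68 and 3.48, and Asf1b, a histone chaperone, at 3.28 and 3.66. Ezh2, which writes a repressive histone mark, stood at 1.98 and 2.70.

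Chil3, a chitinase-like protein of monocytes, was far lower in cycling than in other macrophages. It had 38.4 CPM in cycling and 361 CPM in other WT macrophages, -3.24, with 42 of its 103 cycling UMIs in 1 cell, and 8.86 and 805 CPM in Siah2-/-, -6.51. It belongs to a set of the rule, so a cell high in it could not be a member unless its proliferation z-score was higher still, and its low value is partly fixed by the choice. Lyz2, the lysozyme of myeloid cells and in no set of the rule, was also lower, with log2 ratios of -0.77 and -1.34. Il1rn, an interleukin 1 antagonist that is in a set of the rule, had -1.20 and -1.72, and Samhd1, which destroys deoxynucleotides outside S phase, -1.16 and -1.38.

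Csf1r is the gate gene and both groups were filtered on the 28 identity genes, so their levels are given as a description. Csf1r had log2 ratios of -0.18 in WT and -0.32 in Siah2-/-, Cd68 of -0.15 and -0.08, and Tyrobp of -0.40 and -0.41. Of 27 measured identity genes none was 2-fold higher or lower in WT, and 1 was higher and 2 lower in Siah2-/-, with ratios from -1.44 to 1.26. Over all genes 6.09% were higher and 1.28% lower in WT, and 8.17% and 2.42% in Siah2-/-. MHC class II presentation genes had medians of -0.69 and -0.51, and interferon response genes of -0.64 and -0.67, with 13 and 10 of 38 genes 2-fold lower beside 1.28% and 2.42% of all genes. These lists hold genes of the rule's other sets (H2-Eb1, H2-Ab1 and H2-DMb1, and Rsad2, Ifit2, Ifit3 and Oasl1), so their lower levels in cycling cells are partly fixed by the choice. The complement, scavenger and resident list had a median of -0.17 in WT and 0.41 in Siah2-/-, with C1qa at 0.21 (0.18 to 0.23) and 0.86 (0.82 to 0.90).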

How the data were processed

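Live CD45+ cells from pooled YUMMER1.7 tumors, with some CD45- cells mixed back, were measured by 10x Single Cell 3' libraries, 1 from WT and 1 from Siah2-/- hosts. The authors processed reads with bcl2fastq and Cell Ranger (versions not given in the sources used here) on mm10 (GRCm38), removed cells at the extreme 2% quantiles of genes per cell or above 10% mitochondrial UMIs, and deposited UMI counts per gene and cell. They also deposited normalized values on a natural log scale, ln(1 + 10000 x UMIs / total), and recomputed values differed from them by at most 0.0005.

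The rule was applied to the normalized values. UMI counts were summed per library, expressed as CPM, and compared as log2 ratios for genes with at least 50 UMIs over both libraries. With 1 library a group no test was run. Shares carry exact Clopper-Pearson intervals and ratios exact conditional binomial intervals at 95%, which cover counting error only. A count of 0 was set to a floor of 3 UMIs per library. Thinning drew 4500 UMIs from each cell, and no cell was shallower. Doublets were not removed and no caller was run. Free RNA was read from barcodes with 10 to 100 UMIs.

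The members and gene lists were chosen with earlier results of these data known. Named genes are the 4 genes of the rule, Csf1r and Siah2, the 12 highest and 12 lowest ratios in each comparison with no cell over 10% of a library's UMIs of the gene and an interval without 0, and the extremes of each list. Adgre1, C1qa, Cd68, Lyz2, Tyrobp, Ptprc, Hmga2, Nes, Il34, Adgra2, Cdh2, Cdh13, Mcm5, Pcna, Cdkn1a, Rrm2, Tyms, Tk1, Slc2a1, Hif1a and Vcam1 were named after their values were seen. Alternatives changed depth, z-scale, the set genes, the gate, the UMI minimum and the scaling. Python 3.11.15 with numpy 2.4.6, scipy 1.17.1, pandas 2.3.3 and scanpy 1.11.5 was used, and edgeR 4.0.16 and DESeq2 1.42.0 in R 4.3.3 gave TMM and size factors only. Summing and ratios were tested on simulated data. Results of some genes and of 1 set of the rule are not reported here.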

Additional observations from a re-analysis of the deposited data

Results flagged for a closer look

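Barcodes outside the analysed cells also met the cycling rule. Among barcodes of the unfiltered matrices with at least 1000 UMIs that were not in the authors' table, 37 of 1070 gated barcodes in WT, 3.46% (2.45 to 4.74%), and 15 of 417 in Siah2-/-, 3.60% (2.03 to 5.86%), had the proliferation set highest. They are listed because they are signal in data that no comparison above used. Of them, 27 and 11 had macrophage identity of at least 1%, and 7 and 3 held as many UMIs as the shallowest analysed cell of their library. Their median depth was 4604 and 3898 UMIs, and 15 and 12 of them showed only 1 of the 4 genes.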

How the results depend on the processing

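Each planned choice was changed alone for the cycling set of 287 cells, and cells with macrophage identity of at least 1% were an alternative chosen after the data were seen. The log2 ratio of the cycling share (-1.35) kept its sign in all 13 alternatives and moved to -0.59 with z-scores within each library, -0.91 in thinned cells and -0.91 over all barcodes with at least 1000 UMIs. Genes 2-fold higher (228) numbered 84 in thinned cells, 116 without cells with 3 UMIs of another type, 422, 73 and 1095 with a minimum of 20, 200 or no UMIs, and 129 with identity. The genes past 2-fold between libraries in cycling macrophages, lower in Siah2-/- (640), numbered 68, 282, 1178, 145, 1363 and 106 under the same choices, 411 with 2 of the 4 genes detected and 254 without the deepest 5% of cells. The S phase median (-0.20) was -0.71 with z-scores within each library, -0.34 thinned, -0.092 with the same lowest UMI count, -0.37 over all barcodes, -0.26, -0.31, -0.34 and -0.26 without Mki67, Birc5, Cdk1 or Ccna2, -0.36 with 2 genes detected, -0.65 without the deepest cells, -0.41 without cells with other markers, -0.13 with TMM or DESeq2 size factors and -0.36 as a mean of cells. The G2/M median (-0.26) was -0.75, -0.44, -0.17, -0.37, then -0.33, -0.36, -0.37 and -0.33, then -0.74, -0.76, -0.20 with either scaling and -0.41 in the same order, leaving out 2 genes detected, and -0.38 with 1 barring UMI allowed and -0.21 with identity. The G2/M share differed by -0.45 percentage points, by -1.84 thinned, 2.94 with 2 genes detected, 0.86 without the deepest cells, -3.81 without cells with other markers and -1.56 with 1 barring UMI. The resident-like share differed by -32.5 percentage points and by -18.1 thinned. With identity, lower genes in other macrophages went from 558 to 324, and genes higher in cycling than other cells from 990 to 372 (WT) and 873 to 499 (Siah2-/-), and lower from 212 to 78 (WT). Among named genes whose counting interval left out 0, signs turned for Fkbp5 (0.085 without cells with other markers), Csf1r (-0.052 with 2 genes detected, -0.087 without the deepest cells, and 0.015 with identity and without cells with other markers) and Ccnd1 (0.092 without the deepest cells). Birc5, Ccna2, Siah2, Myc, Maf, Ccnd3 and, with identity, Cyb5r3, Fkbp5 and Ccnd1, whose intervals held 0, also had values on both sides of 0. The cause of these moves was not tested. Depth limits genes under 50 UMIs and the 65 cells labelled Siah2-/-. No paired analysis was possible because each genotype had 1 library, and for the same reason no replicate could be left out.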

Other observations

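The gate left out many cells in which the proliferation set was highest. Of Csf1r-positive cells, 1001 of 2665 in WT and 1801 of 3091 labelled Siah2-/- were barred by a T cell, NK cell or dendritic cell gene, and the proliferation set was the highest in 232 of them in each library. Of these, 160 and 150 had macrophage identity of at least 1%, and 42 in each library were barred by a single UMI. Cd3d was present in 166 and 182 of the 232.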
